A study of Ovis aries with 20 samples.

Results

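The step from day 65 to day 80 was examined in sheep trachea by comparing 4 day 80 libraries with 4 day 65 libraries, 8 of the 20 libraries of a time course at days 65, 80, 100, 120 and 147. At both ages 2 libraries were of healthy sheep (WT) and 2 of sheep with cystic fibrosis (CF), in which the chloride and bicarbonate channel CFTR is defective. No source used here names the allele that the CF sheep carried. All 8 libraries were made from total RNA of frozen tracheal tissue that the labels call epithelial. They were chosen by age alone, and genotype entered the comparison as a covariate. Whether the libraries of a group came from separate animals is not stated, and 3 of the 4 groups carry sample identifiers that share a stem, so p-values reflect only how much these samples vary, and that variation may be technical. The total count ran from 42372433 to 73710784 per library. Of 24478 genes in the tables, 19350 passed the filter on low counts and were tested.

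By these ages of sheep gestation the trachea is a tube of pseudostratified epithelium inside a wall of mesenchyme, cartilage and smooth muscle. Basal cells, which depend on the transcription factor TP63, are the progenitors that give rise to multiciliated and secretory cells. Hedgehog, Wnt, FGF and BMP signals pass between epithelium and mesenchyme and pattern the cartilage, muscle and glands, while a fetal set of RNA-binding proteins (LIN28B, TRIM71 and the IGF2BP family) declines in many organs as they mature.

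Markers of several tissues of the tracheal wall were present in every library. The summed level of 33 epithelial genes ran from 1906 to 6677 CPM (counts scaled to library depth with TMM factors), that of 52 fibroblast and matrix genes from 37500 to 72030 CPM and that of 31 cartilage genes from 1138 to 2699 CPM. NKX2-1, a transcription factor of the respiratory and thyroid epithelium, lay between 7.47 and 86.4 CPM and SOX2, of the proximal airway, between 28.9 and 130 CPM. The tissue is thus not epithelium alone, and for every gene below fewer cells of a type and less RNA per cell cannot be told apart.

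Genes of organs that lie near the trachea, or of the liver, were high in 4 of the 8 libraries. In WT day 80 replicate 2, thyroglobulin (TG), the protein from which thyroid hormone is made, was at 110000 CPM and took 11.02% of all counts, against 0.349 to 4.32 CPM in the other 7 libraries. In CF day 80 replicate 1, perinatal myosin heavy chain MYH8 was at 7660 CPM and skeletal actin ACTA1 at 6010 CPM. WT day 65 replicate 2 was next, with 342 CPM of MYH8 and 91.8 CPM of ACTA1, and the remaining 6 libraries had at most 2.36 CPM of either. In CF day 65 replicate 2, the liver genes AHSG and ALB were at 5540 and 4860 CPM, against at most 9.97 CPM elsewhere, and the red cell gene SLC4A1 was at 169 CPM against at most 10.6 CPM.

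Thymus genes were high in 2 libraries, 1 at each day. The thymic protease PRSS16 was at 128 CPM in WT day 65 replicate 2 and at 79.9 CPM in WT day 80 replicate 2, and at 0 to 1.17 CPM in the other 6. The T cell receptor subunit gene CD3E was at 72.6 and 62.0 CPM in those libraries and at 1.05 to 1.85 CPM elsewhere. By list, 15 of 17 thyroid genes were over 2-fold above their median in WT day 80 replicate 2, 55 of 56 skeletal muscle genes in CF day 80 replicate 1, 47 of 56 in WT day 65 replicate 2, and 19 of 22 liver genes in CF day 65 replicate 2. Of 38 thymus and lymphocyte genes, 32 were so raised in WT day 65 replicate 2 and 33 in WT day 80 replicate 2.

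**Figure D1:**
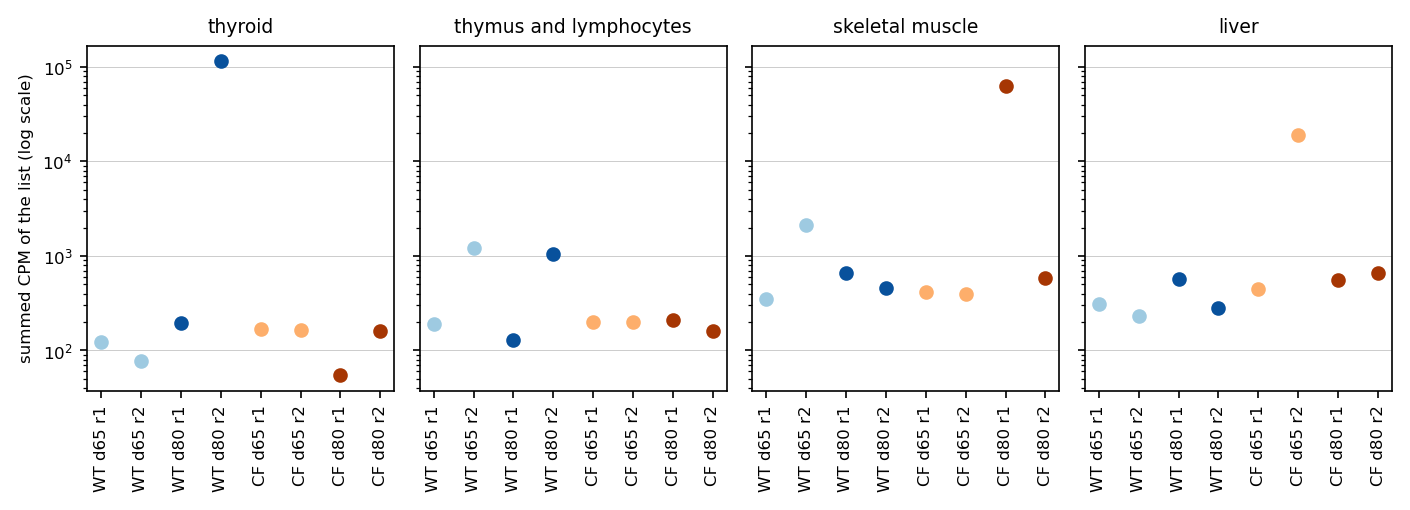
Summed CPM (log axis) of the thyroid, thymus and lymphocyte, skeletal muscle and liver gene lists in each of the 8 libraries, 1 point per library, coloured by group (r1 and r2 are the replicates). Thyroid genes sum to 115000 CPM in WT day 80 replicate 2, muscle genes to 63510 CPM in CF day 80 replicate 1, liver genes to 18980 CPM in CF day 65 replicate 2, and thymus genes to 1212 CPM in WT day 65 replicate 2 and 1046 CPM in WT day 80 replicate 2.

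Genes at least 8-fold higher in 1 library than in the next, with 5 CPM or more there, were listed apart. They stayed among the tested genes, in the counts of calls and in the list medians below. There were 342 of them (1.77% of the tested genes): 185 in CF day 80 replicate 1, 79 in CF day 65 replicate 2, 73 in WT day 80 replicate 2, and 5 in other libraries. They included 50 skeletal muscle, 17 liver, 12 thyroid and 9 erythroid list members, and none of the thymus list, since thymus RNA was in 2 libraries. Some carry names that belong to airway or mesenchymal biology. In WT day 80 replicate 2 the Wnt inhibitor SFRP1 was at 3240 CPM, 11.9-fold above the next library, TGFBI, a matrix protein induced by TGF-beta, at 3420 CPM (9.71-fold), the carbonic anhydrase CA12 at 446 CPM (146-fold) and the sodium channel subunit SCNN1B at 245 CPM (36.8-fold). In CF day 80 replicate 1 the actin and tropomyosin genes ACTC1 and TPM2, the latter on the smooth muscle list, were at 4670 and 4190 CPM, 20.6-fold and 12.4-fold above the next library. In WT day 80 replicate 1 the intelectin gene ITLN was at 804 CPM, 60.3-fold above the next. None of these single-library values was read as a change with age. TPM2 is named again below from a fit that left out CF day 80 replicate 1.

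Gene length moved with the day. In each library the deviation of a gene's log2 CPM from its mean over the libraries was regressed on log2 summed exon length. The slopes were 0.205 and 0.121 in WT day 65, 0.051 and 0.0661 in CF day 65, -0.234 and 0.0428 in WT day 80, and -0.119 and -0.133 in CF day 80. The 4 slopes at day 80 all lay below the 4 at day 65, WT day 80 replicate 2 by the least. The median log2 fold change, day 80 over day 65, was 0.64 in the shortest of 5 length classes (72 to 1444 bases) and -0.35 in the longest (5663 bases and more). Short genes were thus higher and long genes lower at day 80 in both genotypes, and whether this is a property of the libraries or of the tissue at each age cannot be told apart here. Fold changes with a smooth length trend removed from every library are given beside some of the values below.

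**Figure D2:**
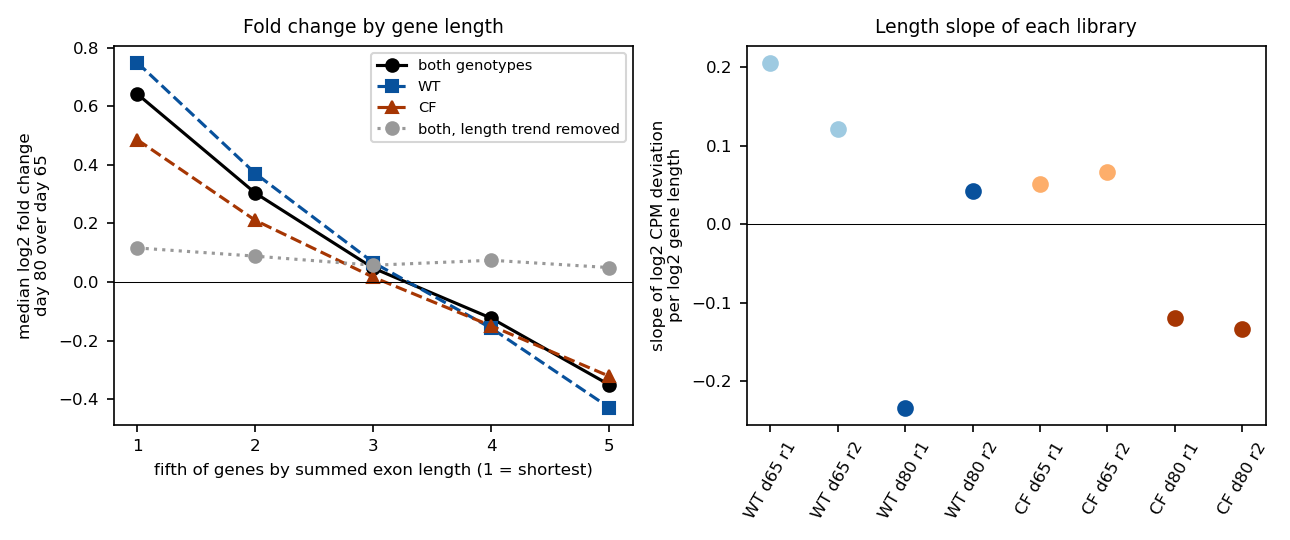
Left, median log2 fold change, day 80 over day 65, in 5 classes of genes of increasing summed exon length (x axis), for both genotypes together, WT, CF and both with the length trend removed. Right, slope of the log2 CPM deviation on log2 gene length in each library, 1 point per library. The medians run from 0.64 to -0.35 from the shortest to the longest class, and the day 80 slopes all lie below the day 65 slopes.

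The first comparison asked which genes differ between day 80 and day 65 in both genotypes. No gene passed edgeR's quasi-likelihood test with genotype as a covariate (percent called 0, smallest Benjamini-Hochberg adjusted p = 0.125). At an unadjusted p under 0.05 there were 4629 genes, 2715 higher and 1914 lower at day 80. DESeq2 called 3040 genes (15.7%), 1736 higher and 1304 lower, and limma-voom with sample quality weights called 751 (3.88%), 521 higher and 230 lower. The edgeR count depended on 1 library: without WT day 80 replicate 2, which held thyroid and thymus RNA, edgeR called 2561 of 20004 genes, 1691 higher (8.45%) and 870 lower (4.35%). Leaving out any other library left the edgeR count at 0. WT day 80 replicate 2 also had the day 80 length slope nearest to day 65 (0.0428). Without it the days lay further apart in length slope, which bears on every count below from that fit. Whether its tissue or its slope moved the count was not tested. Without the 4 libraries that held other tissue, it called 4 genes, all higher: the secreted peptide gene OSTN, the smooth muscle genes ACTG2 and TPM2, and LOC101120606.

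By level alone, in 1856 genes (9.59%) the 4 day 80 libraries all lay above the 4 day 65 libraries, and in 1780 (9.2%) all lay below. These counts depend on the scaling. With library size alone, which moves the median log2 fold change of all genes from 0.04 to -0.27, 705 genes lay above and 3557 below, and with the length trend removed 1742 lay above and 1252 below. In the shortest length class 18.22% lay above and 3.62% below, and in the longest 1.40% and 19.65%. Genes apart in the same direction under 4 scalings (TMM, library size alone, TMM without genes of the 4 neighbouring tissues, and length trend removed) numbered 571 above (2.95%) and 1013 below (5.24%). Of these, 298 higher genes (1.54%) and 161 lower genes (0.832%) were also called by DESeq2 and limma-voom. The median length of the 298 was 1199 bases and of the 161 was 5988 bases, against 2872 for all tested genes. The genes named next are the 12 of largest fold in each direction within these sets.

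FABP4, the fatty acid binding protein of adipocytes and of capillary endothelium (chromosome 9, 57396171 to 57400688, minus strand, in the build of the tables, which is not named), had the largest fold among the higher genes. It was at 0.602 and 1.25 CPM in WT day 65, at 3.13 and 3.43 CPM in CF day 65, at 9.21 and 6.26 CPM in WT day 80 and at 25.8 and 25.3 CPM in CF day 80. The 2 genotypes thus differed in level at both days and shared the size of the step, 3.06 in WT and 2.96 in CF on the log2 scale. The joint log2 fold change was 3.01 with an SE of 0.32 (edgeR adjusted p = 0.125, limma-voom adjusted p = 0.00992, and edgeR adjusted p = 0.0409 without WT day 80 replicate 2). With the length trend removed it was 2.30.

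CLEC3B encodes tetranectin, a plasminogen-binding protein of mesenchyme. It was at 41.5 and 98.4 CPM in WT day 65, 47.1 and 57.2 CPM in CF day 65, 557 and 220 CPM in WT day 80 and 255 and 181 CPM in CF day 80, a log2 fold change of 2.27 (SE 0.39). The hyaluronan receptor layilin, LAYN, was at 3.64 to 7.6 CPM at day 65 and 12 to 47.4 CPM at day 80 (log2 fold change 2.35, SE 0.48). GPIHBP1, which carries lipoprotein lipase across capillary endothelium, was at 1.54 to 3.19 CPM at day 65 and 7.70 to 11.9 CPM at day 80 (log2 fold change 2.15, SE 0.34). In all 3 the libraries of the days did not overlap, since the choice of genes required it.

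CHCHD10, a protein of the mitochondrial intermembrane space, was at 9.74, 14.2, 18.7 and 15.9 CPM at day 65 and at 88.2, 34.4, 96.9 and 49.5 CPM at day 80. MRPL41, of the mitochondrial ribosome, was at 9.83 to 13.1 CPM at day 65 and 21.5 to 77.0 CPM at day 80. IFI6, an interferon-induced protein, was at 6.45 to 14.2 CPM and 18.3 to 78.7 CPM. The remaining 5 leading higher genes, LDLRAD2, FAM213B, FBLN7, C15H11orf96 and C11H17orf89, had log2 fold changes between 1.85 and 2.10. Removing the length trend lowered CHCHD10 from 2.22 to 1.42, IFI6 from 1.94 to 1.24 and C11H17orf89 from 1.85 to 1.06. With each library's length slope as a covariate in the fit, the log2 fold change was 0.06 for IFI6, 0.17 for C11H17orf89, 0.47 for MRPL41, 0.77 for LDLRAD2, 1.02 for CLEC3B and 1.11 for CHCHD10. The slopes did not overlap between the days, and in that fit slope and day cannot be fully told apart. FBLN7, a fibulin of the matrix, was at 210 CPM in WT day 80 replicate 2 and at 41.5 to 65.9 CPM in the other day 80 libraries, and without that library its log2 fold change was 1.23 in place of 1.97.

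Among the lower genes, SHISA7, a partner of inhibitory neurotransmitter receptors, had the largest fold. It was at 5.56, 4.29, 2.97 and 3.54 CPM at day 65 and at 0.208, 0.809, 0.12 and 0.544 CPM at day 80, a log2 fold change of -3.27 (SE 0.62, edgeR adjusted p = 0.125). CCDC129 was at 56.9, 38.1, 30.1 and 36.5 CPM at day 65 and at 2.23, 6.43, 0.723 and 7.64 CPM at day 80 (log2 fold change -3.22, SE 0.71). HIF3A, a family member of the hypoxia-inducible factors, was at 23.0 to 64.2 CPM at day 65. At day 80 it was at 0.454 and 2.85 CPM in WT and at 14.1 and 2.80 CPM in CF, so its step was -4.89 in WT and -1.52 in CF. EdgeR's interaction test of that difference gave an adjusted p of 1.0. HIF3A was among the 2 of 24 leading genes that edgeR did not call without WT day 80 replicate 2, the other being SCN9A.

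TRIM71, a ubiquitin ligase and RNA-binding protein of early embryos (chromosome 19, 7122589 to 7189146), was at 7.52, 7.27, 10.5 and 9.66 CPM at day 65 and at 0.454, 1.5, 1.08 and 2.38 CPM at day 80. Its log2 fold change was -2.73 (SE 0.47), -2.91 in WT and -2.54 in CF, and -2.40 with the length trend removed. PVRL1, the adhesion molecule nectin-1, was at 15.2 to 24.4 CPM at day 65 and 0.454 to 5.44 CPM at day 80 (log2 fold change -2.85, SE 0.69). PKHD1, the fibrocystin of primary cilia, was at 20.7 to 39.2 CPM at day 65 and 2.31 to 7.64 CPM at day 80 (log2 fold change -2.68, SE 0.43). The sodium channel SCN9A and the axonal kinesin KIF1A had log2 fold changes of -2.79 and -2.66. PITPNM3, RALGAPA2, PLCH2 and STON2 lay between -2.57 and -2.76. With the length slope as a covariate PVRL1 was at -0.55, HIF3A at -0.35, TRIM71 at -1.60 and SHISA7 at -1.98.

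**Figure D3:**
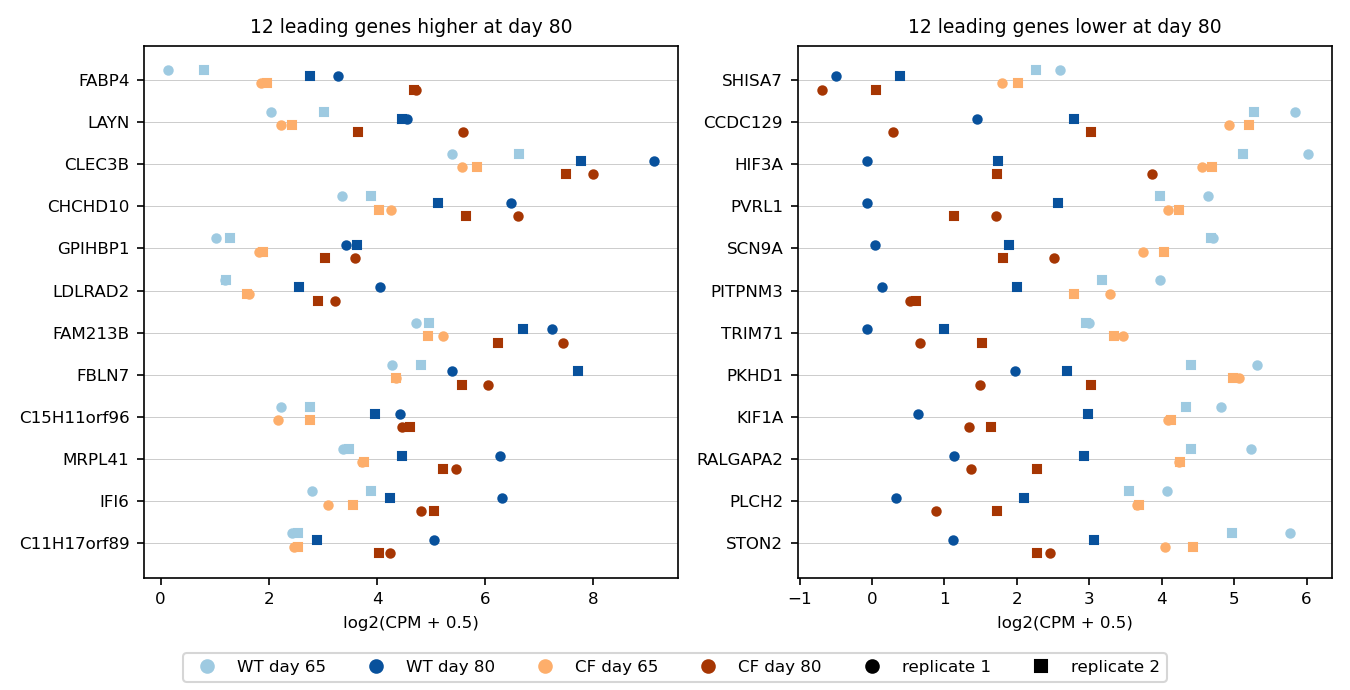
log2(CPM + 0.5) of the 12 leading higher genes (left) and 12 leading lower genes (right) in the 8 libraries. Each point is 1 library, colours are the 4 groups, and circles and squares are replicates 1 and 2. In every gene the 4 day 80 points lie on one side of the 4 day 65 points, since the choice of genes required it.

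The fetal RNA-binding list was the cell state list with the lowest median. Of 12 tested members 6 lay below at day 80 under 4 scalings and none above (background 5.24% below), and the median log2 fold change was -1.20 against 0.04 over all genes. Without WT day 80 replicate 2, edgeR called 5 of the 12 lower (background 4.35%) and none higher. Beside TRIM71, IGF2BP1, which binds and stabilises mRNAs of growing fetal tissue, was at 37.4, 15.5, 29.7 and 31.1 CPM at day 65 and at 10.9, 5.35, 7.80 and 6.57 CPM at day 80 (log2 fold change -1.89, SE 0.36). HMGA2, a chromatin protein of fetal growth, was at 1.69 to 2.53 CPM at day 65 and 0.0482 to 1.15 CPM at day 80 (log2 fold change -2.52, SE 0.76). IGF2BP2 was at 39.8 to 53.1 CPM at day 65. At day 80 it was at 1.00 CPM in WT replicate 1, 31.1 CPM in WT replicate 2 and 10.8 to 13.8 CPM in CF.

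HMGA1 and ARID3A also lay below in all 4 day 80 libraries, with log2 fold changes of -1.14 and -1.51. With the length slope as a covariate 3 of the 6 changed sign, IGF2BP2 to 1.16, ARID3A to 0.67 and HMGA1 to 0.42. Other members did not follow. IGF2BP3 was at 33.2 to 41.3 CPM at day 65 and 24.6 to 44.1 CPM at day 80, so the days overlapped. LIN28B, which blocks maturation of let-7 miRNAs, was at 0.588 to 8.58 CPM at day 65 and 0.0378 to 7.20 CPM at day 80. Its highest levels at each day, 8.58 and 7.20 CPM, were in the libraries with thymus RNA. MYCN had a log2 fold change of 1.03 (edgeR adjusted p = 0.293). The list's median length was 4638 bases, and with the length trend removed its median was -1.10.

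TP63, the master regulator of basal cells, was at 136, 108, 121 and 96.3 CPM at day 65 and at 37.2, 16.4, 23.4 and 57.3 CPM at day 80, a log2 fold change of -1.81 (SE 0.39), -1.31 with the length trend removed. KRT6A, a keratin of basal and squamous epithelium with near-identical copies among which reads can be split, was at 37.5 to 51.2 CPM and 2.72 to 22.8 CPM. KRT5, the basal keratin, did not separate the days, with 354 to 477 CPM at day 65 and 86.8 to 498 CPM at day 80. In all, 3 of 22 basal cell genes lay below under 4 scalings (background 5.24%) and none above, and edgeR called 4 lower without WT day 80 replicate 2 (background 4.35%).

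Of 33 general epithelial genes, CDH1 (E-cadherin), CDH3 (P-cadherin) and the epithelial transcription factor EHF lay below under 4 scalings and none above (background 5.24% below), and edgeR called 1 lower without WT day 80 replicate 2 (background 4.35%). CDH3 was at 50.2 to 78.6 CPM at day 65 and 18.3 to 34.6 CPM at day 80 (log2 fold change -1.31, SE 0.26). EHF was at 503 to 820 CPM at day 65 and at 334, 121, 81.6 and 299 CPM at day 80. EPCAM overlapped, with 143 to 210 CPM at day 65 and 60.7 to 314 CPM at day 80. The list's median log2 fold change was 0.16 in WT and -0.68 in CF. CF day 80 replicate 1, the library with skeletal muscle, had the lowest summed epithelial level (1906 CPM), and the part of this in the lower epithelial genes was not tested.

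The desmosome genes DSG3 and DSC2 on the squamous list also stood lower at day 80, while the list as a whole moved little. Its median log2 fold change was -0.13, and 0.08 over the 4 libraries without neighbouring tissue. A fold change above 0 was seen in 6 of its 15 tested members. DSG3 was at 28.3 to 52.8 CPM at day 65 and 6.04 to 14.7 CPM at day 80, and DSC2 at 34.8 to 54.8 CPM and 9.73 to 30.5 CPM. PAX9, a transcription factor of foregut and pharyngeal epithelium, was at 21.6 to 26.7 CPM at day 65 and 6.28 to 12.2 CPM at day 80 (log2 fold change -1.55, SE 0.27). These were the 3 of 15 members that lay below under 4 scalings (background 5.24%), and edgeR called 3 members lower without WT day 80 replicate 2 (background 4.35%).

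Multiciliated cell genes showed no shared step. GMNC, which starts the multiciliated programme, was at 26.0, 15.1, 21.2 and 18.2 CPM at day 65 and at 5.94, 4.17, 2.96 and 7.46 CPM at day 80 (log2 fold change -1.97, SE 0.36). It was the only 1 of 55 list members apart under 4 scalings (background 2.95% above and 5.24% below). FOXJ1, the regulator of motile cilia downstream of it, was at 122, 177, 257 and 189 CPM at day 65. At day 80 it was at 696 CPM in WT replicate 1 and 429 CPM in CF replicate 2, and at 116 and 145 CPM in WT replicate 2 and CF replicate 1, the libraries with thyroid and muscle. CCNO, which drives centriole amplification, followed the same order, with 137 and 62.5 CPM in the first pair and 13.8 and 16.3 CPM in the second, against 18.2 to 41.7 CPM at day 65. The list's median log2 fold change was 0.35 over the 8 libraries and 0.97 over the 4 libraries without neighbouring tissue.

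Secretory genes were as uneven. SCGB3A2, a secretoglobin of the distal airway, was at 1295, 419, 1422 and 720 CPM at day 65 and at 20881, 1053, 978 and 3407 CPM at day 80, so WT day 80 replicate 1 and CF day 80 replicate 2 stood above all day 65 libraries and the others did not (log2 fold change 2.36, SE 1.12, edgeR adjusted p = 0.242). The gel-forming mucin gene MUC5AC was low throughout, at 1.03 to 7.28 CPM at day 65 and 0 to 0.216 CPM at day 80, and MUC5B at 0.69 to 1.25 CPM and 0 to 0.418 CPM. Both are entries on unplaced scaffolds, with summed exon lengths of 2568 and 1350 bases, and may hold only part of each gene. KLF5, a transcription factor of airway epithelium, was at 264 to 395 CPM at day 65 and 86.8 to 239 CPM at day 80. These 3 of 23 members lay below under 4 scalings and none above (background 5.24% below), and edgeR called 0 of the 23 without WT day 80 replicate 2. LTF, the gland protein lactoferrin, was at 1.46 to 3.84 CPM at day 65 and 2.40 to 13.5 CPM at day 80, so the days overlapped.

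CFTR itself was at 38.2, 22.3, 17.1 and 12.2 CPM at day 65 and at 15.2, 10.5, 4.48 and 8.64 CPM at day 80. Within each genotype both day 80 libraries lay below both day 65 libraries, with steps of -1.23 in WT and -1.16 in CF, and over the 8 libraries the days overlapped because CF levels were lower. The joint log2 fold change was -1.19 (SE 0.31, edgeR adjusted p = 0.125) and -0.75 with the length trend removed. SLC12A2, the sodium, potassium and chloride cotransporter that loads epithelia with chloride, was at 49.3 to 78.2 CPM at day 65 and 23.2 to 44.3 CPM at day 80 (log2 fold change -0.86, SE 0.26, and -0.50 with the length trend removed). The water channel AQP4 was at 242 to 302 CPM at day 65 and 73.4 to 182 CPM at day 80 (log2 fold change -1.13, SE 0.31, and -0.75 with the length trend removed). SLC12A2, AQP4 and SLC9A3 were the 3 of 24 ion and water transport genes below under 4 scalings, and none lay above (background 5.24% below). The list's median log2 fold change was 0.04, and 12 of the 24 had a fold change above 0.

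Of 31 endothelial genes, 5 lay above at day 80 under 4 scalings and none below (background 2.95% above), and edgeR called 9 higher without WT day 80 replicate 2 (background 8.45%). SOX18, a transcription factor of endothelium and lymphatic fate, was at 3.38, 4.07, 4.47 and 4.83 CPM at day 65 and at 14.0, 15.2, 12.4 and 15.9 CPM at day 80. Its log2 fold change was 1.79 (SE 0.24), 1.97 in WT and 1.6 in CF, and 1.27 with the length trend removed. SOX17, its relative in arterial endothelium, was at 1.74 to 4.65 CPM at day 65 and 7.07 to 10.5 CPM at day 80. RAMP2, the adrenomedullin receptor subunit, was at 62.0 to 100 CPM and 127 to 313 CPM, with a log2 fold change of 1.37 that was 0.73 with the length trend removed. Its ligand gene ADM, on the hypoxia list, was at 5.12 to 10.1 CPM and 17.3 to 21.7 CPM (log2 fold change 1.21, SE 0.26). ADM was the only 1 of 35 hypoxia genes above under 4 scalings, and NDRG1, KDM3A and ERO1A lay below, with log2 fold changes of -1.34, -0.59 and -1.05 (background 2.95% above and 5.24% below). KDM3A was at -0.37 with the length trend removed.

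Other endothelial genes were high in WT day 80 replicate 2 alone. PLVAP, of fenestrated capillaries, was at 980 CPM there and at 68.7 to 177 CPM in the other 7 libraries, and the VEGF receptor genes KDR and FLT1 were at 571 and 132 CPM there against 70.9 to 155 CPM and 3.94 to 21.6 CPM. KDR, FLT1 and PLVAP were picked for this after their values were seen. The list's median log2 fold change was 1.18 in WT, 0.16 in CF and 0.03 over the 4 libraries without neighbouring tissue. The genes SOX18, SOX17 and RAMP2 separated the days in both genotypes, and the list as a whole did not.

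Of 23 adipocyte genes, 4 lay above under 4 scalings and 1 below, against 2.95% and 5.24% of all genes. Beside FABP4, PPARG, the regulator of fat cell differentiation, was at 3.44, 4.23, 6.02 and 5.50 CPM at day 65 and at 10.3, 10.5, 18.3 and 9.81 CPM at day 80 (log2 fold change 1.36, SE 0.28, and 1.91 with the length trend removed). AGPAT2, an enzyme of triglyceride synthesis, was at 19.7 to 27.3 CPM and 40.3 to 70.0 CPM, and AQP7, a glycerol channel, at 0.0669 to 0.185 CPM and 0.242 to 5.52 CPM. SCD, the stearoyl-CoA desaturase, went the other way, with 13.8 to 34.5 CPM at day 65 and 0.151 to 11.4 CPM at day 80. The list's median was 1.18 in WT and 1.13 in CF, and 0.54 over the 4 libraries without neighbouring tissue.

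Of 22 Hedgehog genes 3 lay below under 4 scalings (background 5.24%) and none above. GLI1, the pathway's transcriptional target and effector, was at 12.6, 14.4, 11.6 and 17.7 CPM at day 65 and at 4.77, 5.54, 7.35 and 8.12 CPM at day 80 (log2 fold change -1.16, SE 0.25, and -1.0 with the length trend removed). GLI3, the repressor, was at 6.68 to 17.6 CPM and 0.719 to 4.42 CPM, and SMO, the signal transducer, at 80.8 to 97.4 CPM and 16.8 to 67.6 CPM. With the length slope as a covariate GLI3 and SMO changed sign, to 0.13 and 0.39. EdgeR called 4 of the 22 lower without WT day 80 replicate 2 (background 4.35%). The ligand SHH overlapped, at 1.17 to 2.20 CPM and 0.458 to 1.55 CPM, and so did the receptor PTCH1, at 110 CPM in WT day 80 replicate 2 and 13.1 to 53.5 CPM in the other 7 libraries. The list's median moved from -0.49 to -0.16 when the length trend was removed.

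Of 47 Wnt genes, 1 lay above and 4 below under 4 scalings, against 2.95% and 5.24% of all genes. WNT11, a ligand of the planar polarity branch, was at 12.8 to 14.2 CPM at day 65, at 41 and 55.7 CPM in WT day 80 and at 26.2 and 24.8 CPM in CF day 80. RSPO2, the R-spondin needed for tracheal cartilage, was at 10.1 to 15.6 CPM at day 65 and 2.59 to 8.40 CPM at day 80 (log2 fold change -1.37, SE 0.32). Its receptor LGR5 was at 24 to 51.0 CPM and 5.03 to 21.3 CPM, and the ligand WNT4 at 8.93 to 16.9 CPM and 1.04 to 6.57 CPM. LGR6 was under 0.5 CPM in all 8 libraries.

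Of 40 FGF and BMP genes, 2 lay above and 1 below under 4 scalings, against 2.95% and 5.24% of all genes. ID1 was at 30.0 to 53.6 CPM at day 65 and 83.3 to 160 CPM at day 80, and ID3 at 27.2 to 39.9 CPM and 79.4 to 127 CPM, with log2 fold changes of 1.47 and 1.44 that were 0.91 and 1.01 with the length trend removed. Both encode inhibitors of differentiation induced by BMP receptors. BMP3, an antagonistic ligand of the family, was at 269, 179, 196 and 187 CPM at day 65 and at 77.9, 37.1, 32.9 and 83.8 CPM at day 80 (log2 fold change -1.84, SE 0.36). FGF10, which drives budding of the lung, was at 9.52 to 17.7 CPM at day 65 and at 1.95, 5.68, 5.42 and 11.0 CPM at day 80, so CF day 80 replicate 2 overlapped.

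The Notch receptor gene NOTCH2 was at 429, 265, 236 and 245 CPM at day 65 and at 106, 163, 98.2 and 117 CPM at day 80 (log2 fold change -1.26, SE 0.22, and -0.81 with the length trend removed). MAML2, a Notch coactivator, had a log2 fold change of -0.82 (-0.50 with the trend removed) and the ligand JAG2 one of -0.86. JAG2 is here an entry of 461 bases on an unplaced scaffold and may hold only part of the gene. HES2, a gene of the Hes family, had a log2 fold change of 1.72, with 64.4 CPM in WT day 80 replicate 2 and 10.2 to 17.1 CPM in the other day 80 libraries. Under 4 scalings 1 of 26 Notch genes lay above and 3 below, against 2.95% and 5.24% of all genes. The list's median log2 fold change was 0.15, and 18 of the 26 had a fold change above 0. In the retinoic acid list RARRES1 was at 2.92 to 5.43 CPM at day 65 and 8.31 to 12.8 CPM at day 80. The thyroid hormone receptor gene THRB was at 22.6, 15.5, 15.6 and 17.5 CPM at day 65 and at 3.50, 3.67, 1.98 and 5.92 CPM at day 80 (log2 fold change -2.24, SE 0.38). HSD11B2, which inactivates cortisol, was at 0.267 to 0.739 CPM and 0.998 to 2.91 CPM.

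Of 28 genes of oxidative phosphorylation, 13 lay above at day 80 under 4 scalings and none below (background 2.95% above), and edgeR called 24 higher without WT day 80 replicate 2 (background 8.45%). NDUFV1, a core subunit of complex I, was at 33.4, 39.1, 45.5 and 52.5 CPM at day 65 and at 131, 71.2, 167 and 83.3 CPM at day 80 (log2 fold change 1.42, SE 0.28, and 1.09 with the length trend removed). SDHB, of complex II, was at 40.5 to 51.5 CPM and 72.7 to 135 CPM, and ATP5G1, a subunit of the ATP synthase rotor, at 29.5 to 51.2 CPM and 61.7 to 168 CPM (log2 fold change 1.43, and 0.85 with the length trend removed). WT day 80 replicate 1 and CF day 80 replicate 1 held the highest values of all 3. The latter library also held skeletal muscle, whose part in these genes was not tested. Over the 4 libraries without neighbouring tissue the list's median was 1.18, against 1.12 over the 8, and with the length trend removed from the 8 it was 0.65 (median length 1018 bases).

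Ribosomal protein genes, the shortest list with a median length of 704 bases, had a median of 1.12 over 43 genes, and all 43 fold changes were above 0. None lay above under TMM in all 4 day 80 libraries, because WT day 80 replicate 2 summed to 28250 CPM, below the 33120 to 49140 CPM of day 65, whereas the other day 80 libraries summed to 72870 to 132600 CPM. Without that library edgeR called 42 of the 43 higher (background 8.45%). Removing the length trend took the median to 0.36.

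Among immune genes, CTSS, the cathepsin of antigen-presenting cells, was at 14.2 to 22.0 CPM at day 65 and 30.2 to 37.7 CPM at day 80 (log2 fold change 0.86, SE 0.20), and the integrin gene ITGAX at 5.83 to 9.93 CPM and 0.0946 to 3.04 CPM. The pan-leukocyte gene PTPRC followed thymus RNA, at 64.3 CPM in WT day 65 replicate 2, at 67.0 CPM in WT day 80 replicate 2 and at 1.76 to 3.73 CPM in the others. Of the genes of antigen presentation and interferon response 28 of 32 had a fold change above 0, against 10118 of all 19350 tested genes, with a median of 0.68. IFI6 alone of the 32 was apart under 4 scalings (background 2.95% above and 5.24% below). Both myeloid and interferon lists summed highest in WT day 80 replicate 2.

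In the wall, HAND2, a transcription factor of autonomic neurons and mesenchyme, was at 1.46 to 2.53 CPM at day 65 and 5.35 to 7.28 CPM at day 80 (log2 fold change 1.73, SE 0.31). HAND2 was the only 1 of 34 nerve, ganglion and Schwann cell genes above under 4 scalings, and 2 lay below (background 2.95% above and 5.24% below). EFEMP1, a fibulin of elastic matrix, was at 203 to 285 CPM at day 65 and 64.7 to 160 CPM at day 80. It was the only 1 of 52 fibroblast and matrix genes below under 4 scalings, and none lay above (background 5.24% below). Smooth muscle actin ACTA2 was at 100, 227, 108 and 211 CPM at day 65 and at 409, 249, 327 and 547 CPM at day 80, and edgeR's adjusted p was 0.134. The days did not overlap with TMM scaling, but this did not hold under all 4 scalings. On the smooth muscle list none of 27 tested genes was apart under 4 scalings. The list's median log2 fold change was -0.01 in WT and 1.41 in CF. The contractile myosin MYH11 and elastin, ELN, overlapped and had log2 fold changes of -0.0047 and 0.087. The cartilage genes COL2A1 and ACAN also overlapped. Of 40 cell cycle genes none was apart under 4 scalings (background 2.95% above and 5.24% below). MKI67 was at 85.8 to 184 CPM at day 65 and at 16.9, 153, 50.4 and 40.2 CPM at day 80.

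**Figure D4:**
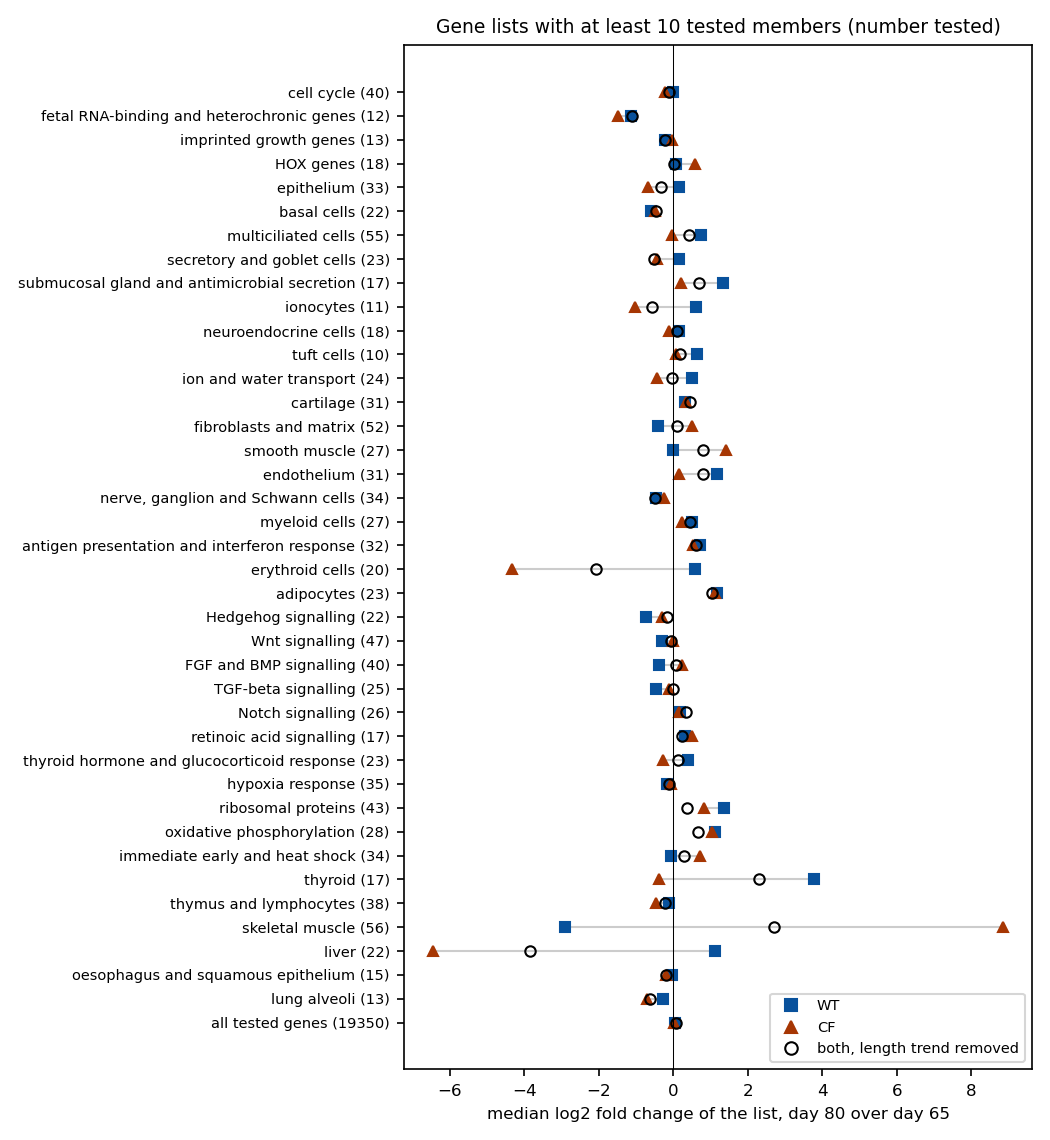
Median log2 fold change, day 80 over day 65, of each gene list with at least 10 tested members (number in brackets) in WT, in CF and over both genotypes with the length trend removed. Fetal RNA-binding genes lie lowest in both genotypes among lists where both agree, with -1.14 in WT and -1.49 in CF, and skeletal muscle, liver, erythroid and thyroid lists have the widest gaps between the genotypes.

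Each genotype was also compared on its own, with 2 libraries a side. In WT edgeR called no gene (3077 at an unadjusted p under 0.05, DESeq2 called 1335), and in CF none (1453 and 295). The WT count rested on single libraries: it was 314 without WT day 80 replicate 1 and 5992 without WT day 80 replicate 2, where the lone day 80 library is assumed to vary like the other groups. Across genes the WT and CF steps had a Spearman correlation of 0.454 over all 19350 genes and 0.613 over the 14650 genes with a mean log2 CPM of at least 1 that were not high in 1 library. With the length trend removed the latter was 0.494. Genes are not independent replicates, the 2 steps share no library, and both share the length trend, so these values are descriptions.

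**Figure D5:**
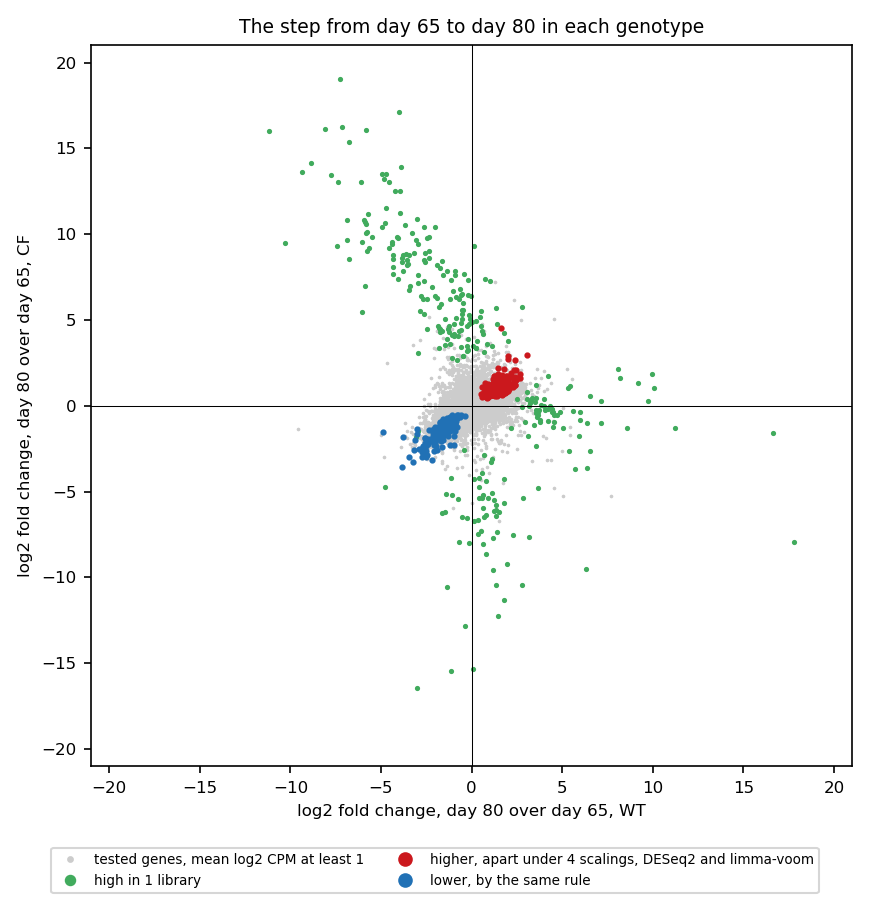
log2 fold change, day 80 over day 65, in WT (x axis) and CF (y axis) of genes with a mean log2 CPM of at least 1, 1 point per gene. Genes high in 1 library (green) spread along the axes, to the upper left for the muscle genes of CF day 80 replicate 1. Those of the 298 higher (red) and 161 lower (blue) genes that reach this level lie in the quadrants of equal sign, since the choice of genes required it.

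Whether the step itself differs between genotypes was tested as an interaction. EdgeR called no gene (percent called 0, smallest adjusted p = 0.952), 716 genes had an unadjusted p under 0.05, and DESeq2 called 145. Without WT day 80 replicate 1 edgeR called 57, and without WT day 80 replicate 2 it called 425. The smallest p of edgeR's interaction test belonged to KERA, the keratan sulphate proteoglycan keratocan, at 87.4 and 86.5 CPM in WT day 65 and 27.6 and 27.6 CPM in WT day 80, against 46.7 and 46.6 CPM in CF day 65 and 83.1 and 77.2 CPM in CF day 80. The difference of the log2 steps was 2.44 (edgeR adjusted p = 0.952). COL12A1, a collagen of tendon and perichondrium, was likewise lower at day 80 in WT, at 675 and 668 CPM against 223 and 201 CPM. In CF its days overlapped, at 275 and 392 CPM against 501 and 368 CPM. EGFL7, an endothelial protein, had a larger step in WT (1.95) than in CF (0.67), with an edgeR adjusted p of 1.0 for the difference.

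The levels of some named genes at later ages, scaled over all 20 libraries, are given for context and without a test. IGF2BP1 was lower still after day 80, with 0.924 and 2.71 CPM for WT and 4.84 and 5.91 CPM at day 100 in CF, and at 0 in both WT libraries of day 147. At day 100 TRIM71 was at 1.11 and 1.47 CPM in WT. In CF it was then at 4.34 and 4.68 CPM, above its CF levels of 1.04 and 2.30 CPM at day 80. At day 100 FABP4 was below its day 80 levels, with 0.85 and 1.31 CPM in WT. In CF it was at 3.42 and 8.99 CPM, and the 4 libraries of day 147 were at 102 to 1300 CPM. Some leading lower genes, picked after their values were seen, lay far apart between the replicates of a later group. In WT day 120 RALGAPA2 was at 30.1 and 2.56 CPM, PVRL1 at 22.9 and 0.955 CPM and HIF3A at 18.0 and 0.378 CPM. TRIM71 was at 0.8 and 0.829 CPM there. For these genes except TRIM71, gaps of this size thus also occurred between libraries of the same age and genotype.

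For 4 genes, picked after their values were seen, the day 80 libraries overlapped neither day 65 nor day 100. TP63 was at 15.9 to 55.4 CPM at day 80 and at 114 to 132 CPM at day 100, within the 92.9 to 134 CPM of day 65. GMNC was at 2.84 to 7.21 CPM at day 80 and 14.4 to 21.1 CPM at day 100. SOX18 was at 11.9 to 15.4 CPM at day 80 and at 1.07 to 3.44 CPM at day 100. WNT11 was at 24 to 53.9 CPM at day 80 and 1.56 to 9.99 CPM at day 100. CFTR, whose days 65 and 80 overlapped, was at 4.30 to 14.7 CPM at day 80 and 17.4 to 31 CPM at day 100.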

How the data were processed

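The submitters' processing notes name STAR 2.6 as aligner and featureCounts 1.6.3 as counter. The authors deposited raw read counts per gene, and gene positions and summed exon lengths stand beside them, per the file headers. No source used here gives the genome build or strand setting, so reads of antisense neighbours cannot be told apart. Low counts (1 to 20) were even in 70.7% to 85.3% of cases per library, so counts may exceed molecules. Of 8432 genes with an identifier in place of a symbol, 501 were given a RefSeq symbol (ARS-UI_Ramb_v3.0, names only).

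Samples were grouped by title. Counts that passed filterByExpr over the 4 groups were scaled by TMM and tested with edgeR 4.0.16 (robust quasi-likelihood, R 4.3.3), with Benjamini-Hochberg adjustment over all tested genes at 0.05. SE comes from the log2 fold change and the root of F. DESeq2 1.42.0 and limma 3.58.1 were alternatives, with library size, filter, replicate block, length and left-out libraries varied. The script was tested on simulated data. The members and the 40 gene lists were chosen with earlier results of these data known.

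The rule for named genes took genes called by edgeR. As none was, it was replaced, after the data were seen, by the rule of 4 scalings, DESeq2 and limma-voom, for genes with a symbol whose mean log2 CPM is 1 or more. List members apart under 4 scalings and a fixed set of key genes were named beside them. The replicates of a group differed by more than counting noise (chi-square per gene of 117 to 1744). Some genes chosen this way are not reported here.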

Additional observations from a re-analysis of the deposited data

Results flagged for a closer look

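In 2 of the named genes both libraries of 1 genotype stood on the opposite side of day 65 from both libraries of the other. KERA, keratocan, was lower at day 80 in both WT libraries and higher in both CF libraries, with a difference of the log2 steps (CF minus WT) of 2.44. ADGRG7, an adhesion receptor, was at 26.3 and 18.6 CPM in WT day 65 and 6.51 and 4.41 CPM in WT day 80, against 0.837 and 0.719 CPM in CF day 65 and 1.66 and 1.67 CPM in CF day 80, with a difference of 3.14. Neither passed edgeR's interaction test, with an adjusted p of 0.952 for KERA and 1.0 for ADGRG7.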

How the results depend on the processing

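The 24 leading genes kept their direction in all 480 fits under 20 alternatives, which their choice largely fixed. They had to share a direction under DESeq2, limma-voom, library size alone, scaling without tissue genes and the length trend removed. Leaving out a library could hardly turn genes whose days did not overlap. Of the 480 fits, 25 moved a log2 fold change by over 1.5 times, mostly with the length slope as a covariate. Its values do not overlap between the days. That covariate gave IFI6 0.06 against 1.94, C11H17orf89 0.17 against 1.85, HIF3A -0.35 against -3.20 and PVRL1 -0.55 against -2.85. It gave 0.47 for MRPL41, 0.77 for LDLRAD2, 1.02 for CLEC3B, 1.11 for CHCHD10, 3.24 for FBLN7, -1.98 for SHISA7, -2.07 for CCDC129, -0.83 for SCN9A, -1.09 for PITPNM3, -1.60 for TRIM71, -0.88 for KIF1A, -1.11 for RALGAPA2, -1.0 for PLCH2 and -0.71 for STON2. With the length trend removed JAG2 was at -1.36 against -0.86 and RARRES1 at 0.87 against 1.34.

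For both genotypes DESeq2 called 3040 genes, limma-voom 751 and edgeR 4 without the 4 libraries holding other tissue, against 0 in edgeR with all 8, and leaving out 1 library gave 0 to 2561 in edgeR. Genes changed alike in both genotypes numbered 2374, 627 and 4 by these, and 0 to 2547 in edgeR without 1 library. DESeq2, run on all 8 libraries, called 1335 in WT, 295 in CF and 145 for the difference of the steps. EdgeR called 0 in each, and without 1 library 0 to 5992 in WT, 0 in CF in every such fit and 0 to 425 for the difference. The genes with no overlap between the days numbered 3636, 13099 without those 4 libraries (2 against 2), and 3849 to 7838 without 1 library. With a replicate block edgeR called 0 genes in each comparison, and 4180 had an unadjusted p under 0.05 against 4629. Deviations of same-numbered samples from their group means correlated between -0.30 and 0.17. With 2 libraries per group and other tissue in 4 of the libraries, this cannot show whether replicate numbers pair the samples. Causes were not tested.

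With the length slope as a covariate the log2 fold change turned in HMGA1 (0.42), IGF2BP2 (1.16), ARID3A (0.67), CHRNA3 (0.78), ITGAX (0.10), SCD (1.66), GLI3 (0.13), SMO (0.39), JAG2 (0.15), RARG (0.66), CD1D (0.24), LPCAT1 (1.15), FOXJ1 (-1.42), CCNO (-2.18), SCGB3A2 (-1.49), COL2A1 (-0.90), ELN (-0.75), FGF10 (0.23), LIN28B (2.09), MKI67 (0.60), TOP2A (0.23), EPCAM (0.35), KERA (0.19) and ADGRG7 (0.28). With the length trend removed it turned in MCIDAS (0.13), ACAN (0.09) and MYH11 (0.36). Without the 4 libraries it turned in MCIDAS (0.61), SOX9 (-0.07) and MYH11 (0.84). Library size alone turned ELN (-0.26) and PTPRC (-0.09), limma-voom MYH11 (0.30) and KERA (0.21), scaling without tissue genes MYH11 (0.01) and the replicate block MYH11 (0.02). Leaving out 1 library gave -0.07 to 0.85 for NKX2-1, -0.73 to 0.37 for MCIDAS, -0.26 to 1.31 for CCNO, -0.50 to 0.21 for MYH11, -0.25 to 0.39 for ELN, -0.56 to 0.13 for EPCAM, -1.0 to 1.40 for PTPRC and -1.05 to 0.08 for ADGRG7.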
